A study of Mus musculus with 289 samples.

Results

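The stefin A genes described here are Stfa1, Stfa2, Stfa2l1 and Stfa3, which are the 4 of 15019 rows of the count table whose symbol starts with Stfa. They were chosen by that prefix and with their counts on the PRT4165 and vehicle plates already known, so their difference between treatments is given as a description, without a test. Stfa3 was found in 81 of 274 cells, Stfa1 in 26, Stfa2 in 2 and Stfa2l1 in 1. Among these 4 genes, Stfa3 held most counts on every plate, and most of its counts came from a few cells per plate.

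Stefins, or type 1 cystatins, are small inhibitors of papain-like cysteine proteases such as the cathepsins B, H and L. They lack a secretion signal and act mainly inside the cell. In human epidermis the stefin A protein is made by differentiating keratinocytes and is cross-linked into the cornified envelope, and its loss causes a skin-peeling disorder. In the mouse, the locus has expanded into a row of closely related genes.

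The cells were keratinocytes sorted from mouse tail skin for the tomato reporter. All mice, of a mixed CBA and C57BL/6 strain, carried Lrig1-EGFP-ires-CreERT2, which drives an inducible Cre from the Lrig1 locus, and the reporter Rosa26-fl/STOP/fl-tdTomato. All received topical hydroxytamoxifen once on the tail, so the reporter marks cells that expressed Lrig1 at labelling and their descendants. Other epidermal cells were not sampled. The skin was then treated with vehicle or with PRT4165, an inhibitor of the ubiquitin ligases Ring1A and Ring1B of Polycomb repressive complex 1. All samples carry the time label t0, and the labels give no age and no number of animals per plate. Each treatment had 2 plates. The labels give the replicate number as the batch, so that each of 2 batches held a vehicle and a PRT4165 plate. The 70 and 55 kept cells of vehicle replicates 1 and 2, and the 72 and 77 of PRT4165 replicates 1 and 2, summed to between 25761756 and 41592716 estimated counts per plate. The median cell of vehicle replicate 1 was shallower, at 141985 counts, than those of the other plates, at 429383 to 538754. The keratinocyte label was checked against Krt14, the basal keratin, which was found in 93.1% of cells, and against Ptprc, which marks leukocytes and was found in 4.74% at a mean of 0.41 CPM (counts scaled to a total of 1000000). Because each plate held cells of 1 treatment, effects of the plate and of the drug cannot be told apart.

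The 4 genes lie within the stefin A cluster on chromosome 16 (GRCm38, GENCODE M21), with 3 exons each. Stfa2l1 (36156811 to 36161953) and Stfa1 (36276951 to 36285373) are on the plus strand, and Stfa2 (36403992 to 36408457) and Stfa3 (36450537 to 36455392) on the minus strand. The related gene Cstdc5 (36359382 to 36367748, minus strand) lies between Stfa1 and Stfa2. The coding parts differ unequally. Stfa1 and Cstdc5 were identical at 97.9% of aligned coding bases and Stfa2 and Stfa2l1 at 96.4%, while Stfa3 was 79.6% identical to Stfa1, 80.9% to Stfa2 and 79.3% to Cstdc5. The second coding exon, 102 bases in each gene, shows this. It is printed from the GENCODE M21 transcripts, because these differences decide to which gene a read can be assigned. Capitals mark the bases that differ from Stfa3.
Stfa3 (chr16:36452151-36452252, minus): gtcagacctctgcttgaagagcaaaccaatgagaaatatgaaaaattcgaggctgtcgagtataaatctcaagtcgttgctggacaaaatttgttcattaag
Stfa1 (chr16:36280466-36280567, plus): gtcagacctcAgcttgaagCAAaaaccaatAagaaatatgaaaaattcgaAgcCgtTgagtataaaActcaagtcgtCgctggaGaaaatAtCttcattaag
Cstdc5 (chr16:36364212-36364313, minus): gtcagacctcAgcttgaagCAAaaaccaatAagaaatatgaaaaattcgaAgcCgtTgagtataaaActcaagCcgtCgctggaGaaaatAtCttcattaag
Stfa2 (chr16:36405130-36405231, minus): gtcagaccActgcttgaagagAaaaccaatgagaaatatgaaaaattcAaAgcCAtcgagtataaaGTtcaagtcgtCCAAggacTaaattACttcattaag
Stfa2l1 (chr16:36159946-36160047, plus): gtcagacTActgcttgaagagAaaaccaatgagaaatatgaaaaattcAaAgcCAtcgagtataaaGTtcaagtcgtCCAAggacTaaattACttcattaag
Stfa1 differed from Stfa3 at 13 of these bases and from Cstdc5 at 1.

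These differences bear on how far each gene's count can be trusted. The libraries were read as single 75-base reads, and Salmon divides a read that matches several transcripts among them, which leaves counts that are not whole. None of the 382 windows of 31 bases in the Stfa3 transcript occurred in another transcript of the cluster, and all 81 Stfa3 values above 0 were whole. In Stfa1, 50.4% of 587 such windows occurred in another transcript of the cluster, most of them in Cstdc5, as did 10.7% of its 75-base windows. Of the 26 Stfa1 values above 0, 84.6% were not whole. Adding Cstdc5 and Cstdc6 to Stfa1 gave a whole sum (within 0.0015) in 6 of those 22 cells, and adding Csta1 as well gave one in 12. With all measured stefin A genes of the cluster added, the sum was whole in 13 of the 22. Why it was not whole in the rest was not tested. The Stfa1 count is thus partly shared with its neighbours, and its split from Cstdc5 is uncertain. In Stfa2, 28.3% of the 31-base windows occurred in Stfa2l1 or another transcript of the cluster.

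Stfa3, Stfa1 and Cstdc5 share a stretch of promoter sequence. The 120 bases before the Stfa3 start (RefSeq, GRCm38.p6) are printed because GATAAG and TTTAAA, 2 of the 3 short motifs searched for, lie in them. The third, TGANTCA, was not found in the Stfa3 window. Capitals mark the matches.
Stfa3 (chr16:36455393-36455512, minus): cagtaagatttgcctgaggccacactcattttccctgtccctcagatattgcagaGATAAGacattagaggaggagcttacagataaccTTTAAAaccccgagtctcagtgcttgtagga
The matching 30 bases of the other genes show that GATAAG was present in Stfa1 and Cstdc5 and not in Stfa2 or Stfa2l1. RefSeq starts Stfa1, Stfa2 and Cstdc5 further in than GENCODE M21, so their stretches lie before the RefSeq start but inside the gene bounds given above.
Stfa1 (chr16:36277079-36277108, plus): tgtggaGATAAGacactagaggaggagctt
Cstdc5 (chr16:36367589-36367618, minus): ttcggaGATAAGacactagaggaggagttt
Stfa2 (chr16:36408402-36408431, minus): tggctattatacattacagaggaggagctt
Stfa2l1 (chr16:36156739-36156768, plus): tggaaataatacatgatagaggaggagttt
In the 250 bases before the start, read on both strands, GATAAG was found in 4 of 11 windows of the cluster and in 6.55% of all 32851 promoters in the table, and TTTAAA in 10 of 11 and in 12.1%. The AP-1 motif TGANTCA was found in 1 of the 11 windows and in 6.75% of all. The motifs do not overlap each other. A match of letters is a description of these windows and not evidence of a bound site.

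Stfa3 was found in more cells than any other gene of the cluster. Vehicle replicates 1 and 2 held 3994 and 4259 of its counts, and PRT4165 replicates 1 and 2 held 132321 and 43700. As CPM of the plate, vehicle stood at 155.04 and 123, and PRT4165 at 3440 and 1051. Both PRT4165 plates stood above both vehicle plates, and they differed from each other by more than the vehicle plates did. The mean was 138.9 CPM ± 22.9 under vehicle and 2246 CPM ± 1690 under PRT4165 (SD over 2 plates each), a ratio of 16.2. In the edgeR fit the log2 fold change was 3.997 ± 0.64 (SE), which fell to 2.99 when PRT4165 replicate 1 was left out. Within batches the ratio of plate CPM was 22.2 in replicate 1 and 8.56 in replicate 2. Giving every cell the same weight, as the mean of each cell's CPM, lowered the ratio to 6.71 (282 against 1891 CPM), and it was then 6.53 and 7.40 within batches.

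For Stfa1, the counts were 1291 and 807 under vehicle and 3425 and 5127 under PRT4165, which gave 50.1, 23.3, 89.04 and 123 CPM. The plates did not overlap. Their mean was 36.7 CPM ± 19.0 under vehicle and 106 CPM ± 24.2 under PRT4165 (SD over 2 plates each), a ratio of 2.89. The log2 fold change was 1.52 ± 0.66 (SE), and it was 2.38 without vehicle replicate 1. Unlike the Stfa3 ratio, this one nearly vanished with equal weight for every cell, at 1.12 (66.5 against 74.7 CPM), and the plates then overlapped. Within batches the ratio of plate CPM was 1.78 and 5.30, while that of the equally weighted cells was 0.62 in replicate 1 and 3.53 in replicate 2, so its direction differed between batches. With Stfa1, Cstdc5 and Cstdc6 summed as 1 gene, the log2 fold change was 1.02 ± 0.50 (SE).

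Stfa2 and Stfa2l1 were close to absent. Stfa2 had 3 counts in each of 2 cells of PRT4165 replicate 1 and none on the other plates, where 0 cells allow a share of up to 4.29%, 5.45% and 3.90% of cells in vehicle replicate 1, vehicle replicate 2 and PRT4165 replicate 2. Stfa2l1 had 1 count in 1 cell of PRT4165 replicate 1. No fold change is given for either, and because the pair share sequence the gene of origin of these few reads is uncertain. The cells with Stfa2 were those in wells C2 and E10, the 2 with the highest Stfa3 level of all cells, and the cell with Stfa2l1, in well C7, held 11692 CPM of Stfa3.

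Across all genes, 1969 of 12791 tested (15.4%) had both PRT4165 plates above both vehicle plates, so the same order in Stfa1 and Stfa3 is read as no result of its own. Of the 12791 genes, 0 (0%) passed an adjusted p of 0.05 in the edgeR quasi-likelihood test. Without adjustment, 630 had a p under 0.05. DESeq2 called 1.34% of the 12791 at the same adjusted threshold, 69 of them lower. Stfa1 and Stfa3 passed the low-count filter and Stfa2 and Stfa2l1 did not. Among the tested genes, Stfa3 ranked 96th by mean level and Stfa1 1585th.

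**Figure D1:**
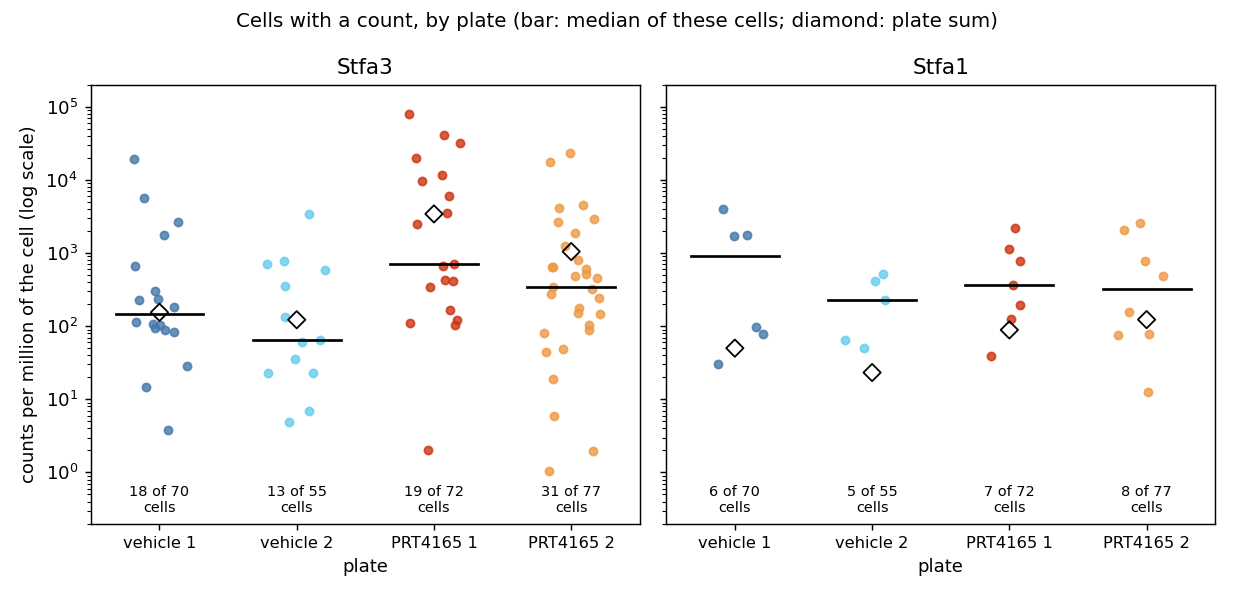
Level of Stfa3 (left) and Stfa1 (right) in each cell with a count, as CPM of the cell on a log axis, by plate. Points are cells, bars the median of these cells and open diamonds the CPM of the summed plate. The highest Stfa3 cells lie on PRT4165 replicate 1, up to 80757 CPM, while the highest Stfa1 cells reach 2213 CPM or more on 3 plates and 515 CPM on vehicle replicate 2.

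Per length, Stfa3 was compared with Cstdc5 and Stfa1. Dividing by transcript length gave 376 and 298 CPM per kb of Stfa3 under vehicle, and 8350 and 2550 under PRT4165. Cstdc5 stood at 242 and 759, and at 1143 and 662. Stfa1 was the lowest of these 3 genes on each plate, at 81.2 and 37.7, and at 144.3 and 199.8 CPM per kb. Under vehicle the values of Stfa3 and Cstdc5 overlap, so their order was not settled. Under PRT4165 both Stfa3 values were above both Cstdc5 values.

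A few cells held most of the counts on every plate. The cell with the most Stfa3 counts held 54.2% and 35.8% of them on vehicle replicates 1 and 2, and 45.4% and 38.2% on the PRT4165 replicates. The 3 highest cells together held between 73.9% and 88.5%. With Stfa1, the highest cell held 37.4%, 43.2%, 48.1% and 47.6% on the same plates. The concentration was thus a feature of vehicle and PRT4165 plates alike. Leaving out the highest Stfa3 cell of each plate gave a log2 fold change of 4.11 ± 0.61 (SE), and leaving out the highest 3 gave 3.29 ± 0.55.

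**Figure D2:**
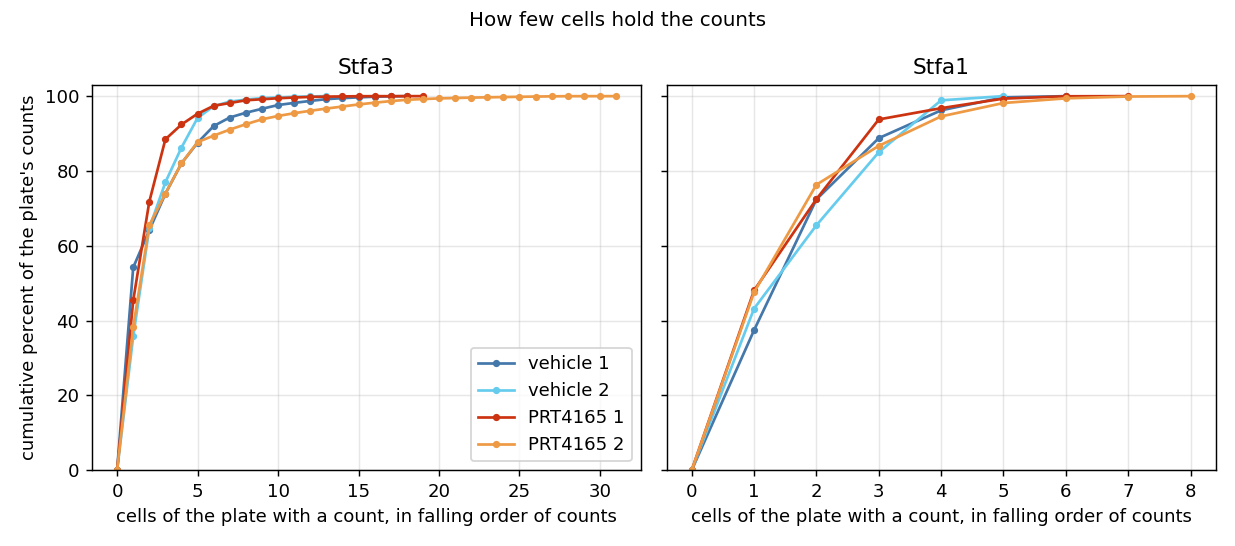
Cumulative percent of a plate's Stfa3 (left) and Stfa1 (right) counts against the number of cells with a count, taken from the highest cell down, with a line per plate. By the third cell every Stfa3 line has reached 73.9% or more, and the vehicle and PRT4165 lines cross each other.

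The highest cells were of more than one kind. In well C2 of PRT4165 replicate 1, Stfa3 had 60051 counts, or 8.08% of all counts of the cell. This cell expressed the basal keratins Krt5 and Krt14 at 576 and 3457 CPM, Krt10 at 463 CPM and no Krt1. In well E10 of that plate, Stfa3 took 4.17% of the counts, and the differentiation keratin Krt10 stood at 21209 CPM. In well G2, at 3.25%, Krt5 and Krt14 were at 262 and 431 CPM with no Krt1 or Krt10. The cell in G2 fell in the cluster led by cell cycle genes. On PRT4165 replicate 2 the highest cells, in wells D2 and B10, held 23508 and 17710 CPM of Stfa3 with Krt10 at 19701 and 19090. The highest vehicle cell, in well A7 of replicate 1, held 19122 CPM of Stfa3 and 8267 of Krt10.

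The share of cells with Stfa3 moved less than its level. It was 25.7% (95% Wilson interval 16.9 to 37.0) and 23.6% (14.4 to 36.3) under vehicle, and 26.4% (17.6 to 37.6) and 40.3% (30.02 to 51.4) under PRT4165. The difference of the means, 8.65 percentage points, came mainly from PRT4165 replicate 2 and was 1.71 points without that plate. Within batches it was 0.67 points in replicate 1 and 16.6 points in replicate 2. With every cell thinned to 50000 counts, which left 59, 54, 61 and 72 cells, the shares were 23.7% ± 4.5 and 31.3% ± 9.2 (SD over 2 plates each), and the plates overlapped. Cells with a high Stfa3 level made up a larger part of all kept cells on the PRT4165 plates. Cells above 1000 CPM of Stfa3, a limit set after the values were seen, made up 5.71% and 1.82% of the vehicle plates (4 and 1 cells) and 12.5% and 10.4% of the PRT4165 plates (9 and 8 cells). Cells above 100 CPM made up 17.1% and 10.9%, and 25% and 29.9%. The median of the positive cells was 147.8 and 64.5 CPM with vehicle and 708 and 342 CPM with PRT4165. How many of all genes had these orders was not counted, so they are read as no result of their own.

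For Stfa1 the share was 8.57% and 9.09% with vehicle and 9.72% and 10.4% with PRT4165, or 6, 5, 7 and 8 cells. The PRT4165 plates were thus both above the vehicle plates, with means 1.22 percentage points apart. With cells thinned as for Stfa3, the shares were 9.58% ± 0.56 under vehicle and 10.2% ± 0.64 under PRT4165 (SD over 2 plates each). The plates then overlapped. How many of all genes had the first order was not counted, so it is read as no result of its own. The Wilson intervals describe counting error over cells alone, and the widest ran from 3.95% to 19.6%. Above 1000 CPM there were 3, 0, 2 and 2 cells.

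Stfa1 was found almost only in cells that also had Stfa3. Of the 26 cells with Stfa1, 25 had Stfa3 (96.2%), and these were 30.9% of the 81 cells with Stfa3. This held on each plate, in 5 of 6, 5 of 5, 7 of 7 and 8 of 8 cells. The exception, in well D2 of vehicle replicate 1, had 4 counts of Stfa1. Of the same 26 cells, 23 had Cstdc5 and 18 had Csta1, another stefin A gene of the cluster. Because Stfa1 shares sequence with Cstdc5 and none of 31 bases with Stfa3, divided reads can enter the first of these pairs and not the pair of Stfa1 and Stfa3. Cells with a count were also deeper, with a median of 602017 counts for Stfa1 and 511309 for Stfa3 against 348678 in cells without Stfa3. Their median share of mitochondrial counts was 24.5% for both genes, against 20.9% in cells without Stfa3. The part of depth and cell quality in the co-detection was not tested.

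**Figure D3:**
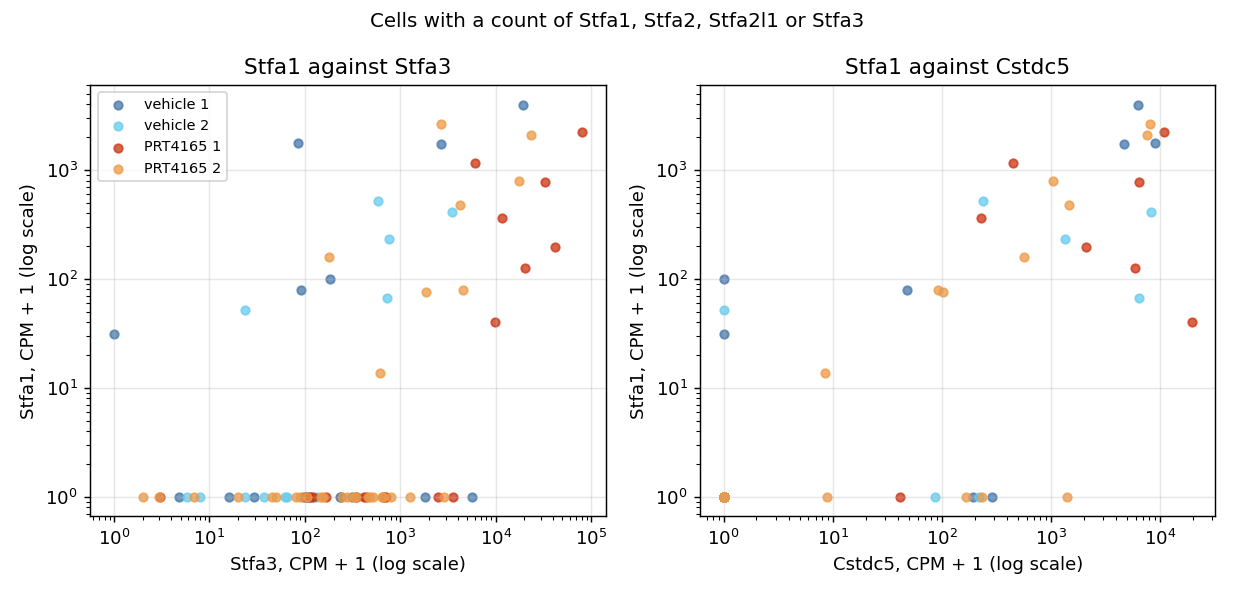
Stfa1 level against Stfa3 (left) and against Cstdc5 (right) in the cells with a count of any Stfa gene, as CPM + 1 on log axes, coloured by plate. Of 26 cells with Stfa1, 1 lies at no Stfa3 on the left and 3 at no Cstdc5 on the right, and many Stfa3 cells lie at no Stfa1.

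Cells with Stfa3 were more often differentiating cells. A cell was put in the suprabasal class where the keratins Krt1 and Krt10 of differentiating keratinocytes together exceeded the basal keratins Krt5 and Krt14, and in the basal class otherwise. Stfa3 was found in 39.1%, 31.2%, 40% and 70% of suprabasal cells on vehicle replicates 1 and 2 and PRT4165 replicates 1 and 2, and in 19.1%, 20.5%, 21.2% and 21.3% of basal cells. The suprabasal share was higher on 4 of 4 plates, by 24.6 points ± 16.6 (SD, n = 4 plates), with p = 0.13 in an exact two-sided sign-flip test, the smallest that 4 plates allow. Thinned to 50000 counts, the difference was 23.8 points. For Stfa1 the difference was 11.03 points ± 11.8, higher on 3 of 4 plates (exact p = 0.25).

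The level did not follow the class in the same way. In suprabasal cells, Stfa3 stood at 187.5 and 73.3 CPM with vehicle and at 2337 and 2149 CPM with PRT4165. In basal cells it stood at 100.99 and 143.9 CPM with vehicle, and at 4092 and 73.7 CPM with PRT4165. The PRT4165 plates were thus both above the vehicle plates in the suprabasal class and fell on both sides of them in the basal class. How many of all genes had the first order within the suprabasal class was not counted, so it is read as no result of its own. Basal cells held 74.8% of the Stfa3 counts of PRT4165 replicate 1 and 3.71% of those of PRT4165 replicate 2. Of the 98940 basal counts on PRT4165 replicate 1, the cells in wells C2 and G2 held 60051 and 34952. With the lower limit for the suprabasal class given under the processing alternatives, basal cells held 27.0% and 1.51%. PRT4165 replicate 1 then stood at 4545 CPM in suprabasal and 2076 CPM in basal cells, so its class order was reversed. The other plates kept theirs.

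Clusters of cells, built without the stefin and cystatin genes, gave a finer view. Of 9 clusters, the suprabasal interfollicular-like cluster had Stfa3 in 35 of 59 cells, or 59.3% (95% Wilson interval 46.6 to 70.9). The interval pools the cells of all plates, whose own shares ran from 36.4% to 80%. This cluster held 39.7% of all Stfa3 counts and 61.5% of all Stfa1 counts. An unnamed cluster with Adh7, Ifitm3 and Krt5 among its leading genes had Stfa3 in 16 of 41 cells and the cycling-like cluster in 7 of 18, or 39.02% and 38.9%. The upper follicle-like cluster, in which 72% of cells were also of the suprabasal class, had it in 6 of 25 cells at only 19.4 CPM, against 1990 CPM in the suprabasal interfollicular-like cluster. The sebaceous-like cluster had it in 4 of 29 cells and the bulge-like cluster in 4 of 31, all 4 on PRT4165 replicate 2. An unnamed cluster led by the wound keratin Krt6a had it in 2 of 26 cells. Another unnamed cluster, of shallow cells with a median of 136910 counts, had it in 7 of 32 cells, or 21.9%, at 399 CPM, and held the highest vehicle cell. In the remaining unnamed cluster it was in 0 of 13, which allows a share of up to 23.1%. Stfa1 was in 0 of 31 bulge-like and 0 of 25 upper follicle-like cells, which allows shares of up to 9.68% and 12%.

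Within the suprabasal interfollicular-like cluster both PRT4165 plates stood above both vehicle plates. The share of all genes in that order was not counted within the cluster, so the order is read as no result of its own. Stfa3 was at 150 and 109 CPM in the 12 and 11 vehicle cells and at 2680 and 3166 CPM in the 16 and 20 PRT4165 cells. Without the highest cell of each plate these were 91.8, 56.5, 951 and 1896 CPM. The share of cells was 58.3% and 36.4% with vehicle and 50% and 80% with PRT4165, which overlap. In the unnamed cluster with Adh7 and Krt5, the level was 99.5, 344, 12450 and 120 CPM, so that the high value there was that of PRT4165 replicate 1 alone. In that cluster, 1 cell held 94.9% of the counts of PRT4165 replicate 1. Without the highest cell of each plate the level there was 29.0, 66.8, 748 and 57.1 CPM. Stfa1 in the suprabasal interfollicular-like cluster stood at 153.96 and 51.1 CPM with vehicle and at 68.5 and 373 CPM with PRT4165, and the plates overlapped.

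**Figure D4:**
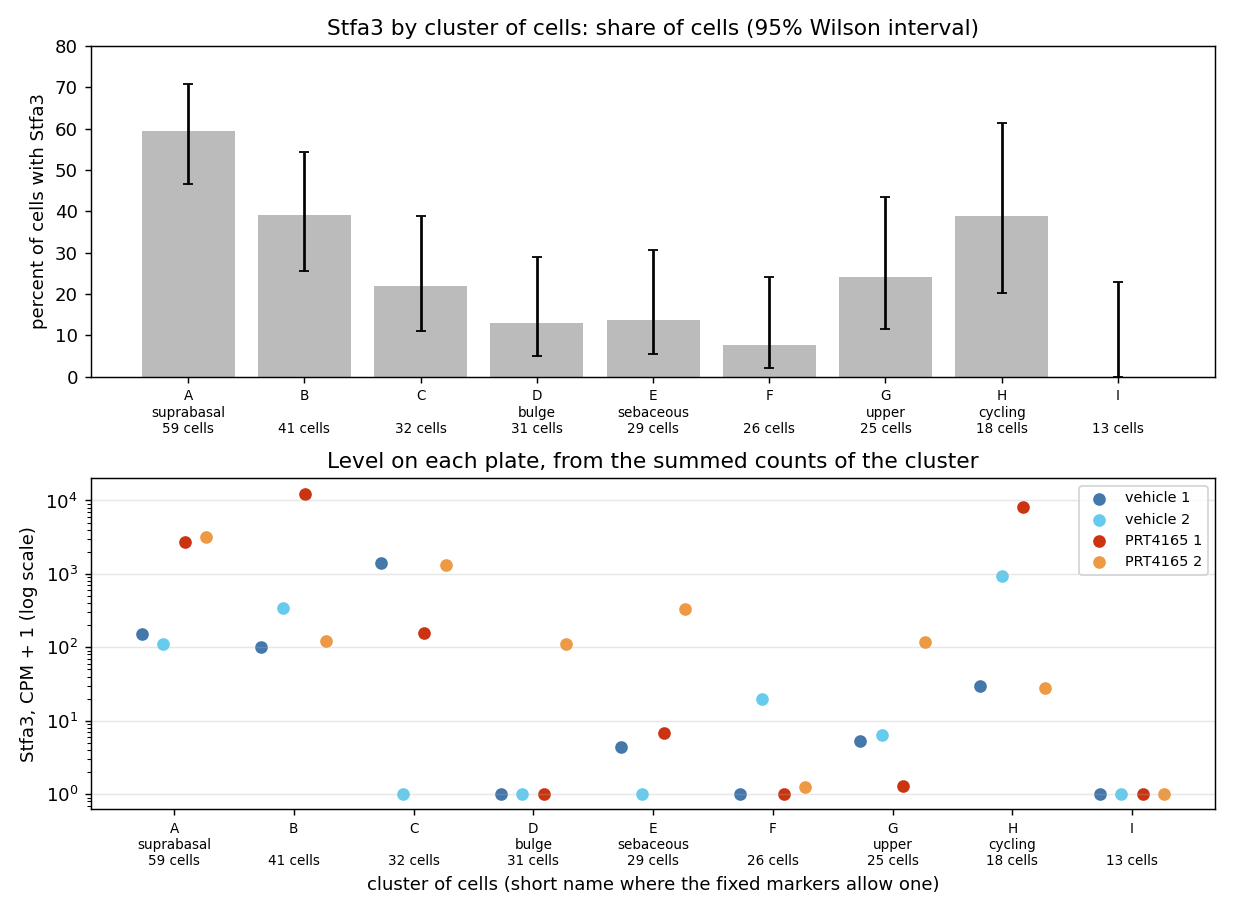
Stfa3 by cluster of cells. Top, percent of cells with a count, with 95% Wilson intervals over the pooled cells of all plates as bars of error. Bottom, CPM of the summed cells of each plate plus 1, on a log axis, with a point per plate. In cluster A, the suprabasal interfollicular-like one, both PRT4165 points (2680 and 3166 CPM) stand above both vehicle points (150 and 109 CPM). In clusters B and H the highest point is PRT4165 replicate 1, where 1 cell held 94.9% and 100% of the counts.

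Most suprabasal interfollicular markers were higher in cells with Stfa3. Of 8 suprabasal markers, 6 were higher in cells with Stfa3 than in cells without on all 4 plates. The same held of 643 of 9276 genes (6.93%). Krt1 was found in 46.9% of cells with Stfa3 and 7.77% of cells without, and Calm4, a calmodulin-like protein of differentiating keratinocytes, in 87.7% and 46.1%. Of 7 genes that the study lists for the interscale programme of tail epidermis, which is the orthokeratotic skin between the scales, 7 were higher on all 4 plates, against 0 of 9 for the scale programme. That list was taken after the values were seen and overlaps the suprabasal markers. It also includes Csta1, a stefin A gene of the cluster whose reads may be divided with Stfa1. No bulge marker was higher on all 4 plates, and 2 of 7 were lower on all 4, beside 9.44% of all genes. With Stfa1 the counts were 4 of 8 suprabasal markers and 6 of 7 interscale genes, beside 796 of 9276 genes (8.58%). Of the scale genes, 1 of 9 was higher with Stfa1. Of 26 cornified envelope genes, 4 were higher on all 4 plates with Stfa3 and 1 with Stfa1. Higher on no plate were 2 with Stfa3 and 10 with Stfa1, in each case with 1 gene that had no counts. Of 7 basal markers, 1 was higher on all 4 plates with either gene. With Stfa1 it was Ly6a, found in 84.6% of cells with Stfa1 and 25.8% of cells without. In the study its product, Sca-1, was also used to sort upper follicle cells of this lineage, so Ly6a does not mark basal cells alone. Of 9 upper follicle markers, 0 were higher and 4 were lower on all 4 plates with Stfa1. Krt2, a late differentiation keratin, was found in 73.1% of cells with Stfa1 and in 4.03% of cells without.

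The genes whose levels were most like Stfa3 across the 274 cells were Cstdc5 (Pearson r = 0.67 of log2(CPM + 1) centred on the plate), Krt2 (0.51), Ces2g (0.50), Serpinb12 (0.49), Calm5 (0.49), Csta1 (0.45), Calm4 (0.45), Oas1f (0.44), Krt1 (0.44) and Mettl7a3 (0.43), of 9275 genes found in at least 10% of cells. The mean of the rank correlations within plates was 0.58 for Cstdc5, 0.40 for Krt2 and 0.28 for Mettl7a3. For Stfa1 the list ran Cstdc5 (0.83), Krt2 (0.77), Stfa3 (0.65), Mettl7a3 (0.64) and Ces2g (0.54). Cells of a plate share their library preparation, and deep cells detect more genes, so these values are descriptions. Krt5 and Krt14 stood at -0.11 and -0.04 with Stfa3.

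The other stefins of the cluster and the secreted cystatins did not pass the test. Of 9 measured genes of the stefin and cystatin list, 7 were tested, 0 were called, 3 had a positive and 4 a negative log2 difference, and the median was -0.06 beside -0.02 over all genes. Csta1 was at 24.9 and 70.7 CPM with vehicle and 60.1 and 191.8 CPM with PRT4165, with a log2 difference of 1.52 ± 0.75 (SE, edgeR quasi-likelihood adjusted p = 0.997). Cstdc5 was at 149.5 and 470 CPM, and 707 and 410 CPM. Its plates overlap, and the log2 difference was 0.94 ± 0.57 (adjusted p = 0.997). Cstb, which encodes stefin B and is used by nearly every cell, was at 437 and 470 CPM with vehicle and 264 and 281 CPM with PRT4165, a log2 difference of -0.70 ± 0.44 (adjusted p = 0.997). It was found in 95.6% of cells, against 29.6% for Stfa3. Cst6, which encodes the secreted cystatin M/E of the upper follicle, had a log2 difference of -0.58 ± 0.47 (adjusted p = 0.997). Csta2 and Csta3 had 4 counts each, Cstdc6 216 and Cstdc4 685 in all cells.

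The cysteine cathepsins, which include proteases that stefins bind, were measured too, together with legumain. Of 8 cysteine cathepsins and legumain, 0 were called, with a median log2 difference of -0.03. Ctsl stood at 993 and 1211 CPM with vehicle and 829 and 1726 CPM with PRT4165, Ctsb at 282 and 374, and 309 and 263 CPM. Their plates overlap. Of 23 tested cornified envelope genes, 0 were called, 7 were positive and 16 negative, and the median was -0.44. Its most abundant member, Sprr1a, stood at 8457, 5577, 1384 and 8632 CPM. Of 17 tested clade B serpins and secreted inhibitors, 0 were called, with a median of -0.33. Serpinb5 stood at 2737, 2390, 2623 and 3115 CPM. Stfa3 and Stfa1 are in none of these lists.

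Markers of other cell types were read as well. Stefin A genes are also transcribed by neutrophils, so 13 neutrophil and myeloid markers were looked for. Of these 7 were in the table, and their summed level was 157.9 and 76.3 CPM under vehicle and 3.12 and 10.3 CPM under PRT4165. On vehicle replicate 1 this sum was close to the Stfa3 level of 155.04 CPM. S100a8, at 155.31 CPM there, made up nearly all of it. Among the cells with Stfa3 on that plate, only the cell in well E3 had S100a8, at 3.81 CPM with 2 counts of Stfa3. S100a8 is also made by stressed keratinocytes. Over all plates it was found in 8.64% of cells with Stfa3 and 3.63% of cells without. S100a9 was found in 1 cell, and none of the 7 was higher in cells with Stfa3 on all 4 plates. The part of myeloid cells in the Stfa3 counts was not tested. Langerhans and T cell markers summed to 0.82 CPM or lower on each plate, melanocyte markers to 5.16 or lower and fibroblast markers to between 7.25 and 84.3 CPM, the highest on PRT4165 replicate 1. Only 2 of 7 Langerhans and T cell, 3 of 5 melanocyte and 4 of 5 fibroblast markers were measured. None of these lists had a gene that was higher in cells with Stfa3 on all 4 plates. The only endothelial marker measured, Pecam1, was listed in 100% of cells, so it marks no cell type here. Between the treatments, the suprabasal markers had a median log2 difference of 0.07, the basal ones -0.36, the bulge ones -0.13, the upper follicle ones -0.70, the sebaceous ones 0.69, the cycling ones 0.81 and the wound keratins -1.28, with 0 called in each. The interscale genes had a median of 0.86, with 6 of 7 positive, the scale genes -0.53, with 8 of 9 negative, and the fibroblast markers 1.62, with 3 of 3 positive, again with 0 called. The sebaceous-like cluster held 2, 3, 6 and 18 cells of the 4 plates, so the makeup of the plates differed beside the Stfa3 level, and its part in the plate sums was not tested.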

How the data were processed

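Tomato-positive cells were sorted into 96-well plates and sequenced by a modified Smart-seq2 protocol with 25 PCR cycles and 75-base single reads. Per the labels, the authors mapped reads to the mouse transcriptome with Salmon 0.13.1 (Ensembl annotation, GRCm38) and deposited estimated counts per gene and cell, not scaled. Cells with at least 1000 genes and at most 50% mitochondrial counts were kept, as in the study (274 of 289). All 289 columns matched a title. The label with AC was taken as vehicle, since PRT4165 and vehicle are the only treatments named. The label also holds codes that differ between treatments and are not explained. Without molecular identifiers, intervals and limits describe counting error alone. No doublet caller was run, as wells received single sorted cells.

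Counts were summed per plate, rounded, filtered with filterByExpr, scaled by TMM and fitted with the edgeR quasi-likelihood test (edgeR 4.0.16, R 4.3.3, Benjamini-Hochberg adjustment, threshold 0.05). The SE is the log2 fold change divided by the square root of F. DESeq2 1.42.0, no scaling, no filter, a replicate block, leaving out each plate or the highest cells, all cells, and sums without the 13 mitochondrial genes were alternatives. CPM uses all counts of the cell or plate. Clustering used 2000 variable genes as log2(CPM + 1) scaled within each replicate number, 15 components, 15 neighbours and Leiden resolution 1 (leidenalg 0.10.2), without mitochondrial, stefin and cystatin genes. A cluster was named only where a single marker list led its 10 top genes with at least 2 genes and at least 3 of the list were raised. The code for the fit was tested on simulated data. The genes named are the Stfa rows, their relatives, the most abundant members of each list, and the genes most like Stfa3 and Stfa1. The members, lists and limits were chosen with earlier results of these data known. The labels give the replicate number as the batch, which pairs a vehicle with a PRT4165 plate; across 12791 genes the differences between replicates correlated at r = 0.04 between treatments. The titles of both replicate 2 plates carry a suffix with a number that those of replicate 1 lack. The study's methods describe 2 independent experiments with 4 biological replicates each, but the labels tie no plate to animals, so a p-value measures the spread between plates.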

Additional observations from a re-analysis of the deposited data

How the results depend on the processing

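Alternatives not named below left the values within 1 SD between plates and turned no direction. The share of tested genes called was 0% in the edgeR fits without scaling, without the filter, with all deposited cells, without mitochondrial genes and with each plate left out (0 to 0), and 1.34% with DESeq2. Where a plate was left out, the lone plate of its treatment was taken to vary like the others. The Stfa3 log2 fold change of 3.997 was 2.74 from the mean CPM of cells and ran from 2.99 to 4.59 with a plate left out. The Stfa1 log2 fold change of 1.52 was 0.17 from the mean CPM of cells and ran from 0.99 to 2.38 with a plate left out. The cause of these shifts was not tested. The difference in the share of cells with Stfa3 between treatments ran from 1.71 to 15.6 points with a plate left out, the lowest without PRT4165 replicate 2. The difference between suprabasal and basal cells ran from 16.5 to 29.2 points with a plate left out and was 18.7 points where Krt1 and Krt10 had only to exceed 0.1 of Krt5 and Krt14. At that limit the Stfa3 level on PRT4165 replicate 1 was higher in suprabasal than in basal cells, the reverse of the order with the main classes. The highest share of Stfa3 cells in a cluster was 60% at resolution 0.6 and 78.8% at resolution 1.5, against 59.3%. Leaving out the highest 3 cells and summing Stfa1 with its relatives were chosen after seeing the data. Stfa2 and Stfa2l1, with 6 counts and 1 count in all, are given no fold change under any setting. With the replicate number as a block, which is the batch of the labels, 0 genes were called and the log2 fold changes were 3.82 for Stfa3 and 1.65 for Stfa1, so that the pairing changed no call. The SD of the share of cells with Stfa3 between plates of a treatment was 7.01 points, close to the difference of 8.65 points between treatments, and 2 plates per treatment limit what can be told.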
